A study of Mus musculus with 24 samples.

Results

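The comparison described here sets the duodenum of mice raised on a rescue diet against that of mice raised on a normal diet, both collected after an injection of 1,25-dihydroxyvitamin D3 (1,25D). It comprises the 6 libraries labelled rescue diet with 1,25D and the 6 labelled normal diet with 1,25D, 12 of the 24 libraries in the series, chosen by their titles and not by any measured value. All animals were male Cyp27b1 null mice. They lack the enzyme that makes 1,25D, so the injection stands in for a hormone that the mice cannot form. Both diets lacked vitamin D and supplied vitamins A, E and K. The rescue diet held 2% calcium, 1.25% phosphorus and 20% lactose, and the normal diet 0.47% calcium and 0.3% phosphorus. Feeding began at weaning, at 3 weeks, and at 8 weeks of age the mice received 2 ng of 1,25D per g of body weight 6 h before RNA was taken. The remaining 12 libraries, 6 per diet, came from mice given vehicle and were used to estimate the spread and to ask whether the diet difference was also there without the hormone. Calcium and phosphorus differed together between the diets, and a lactose content is given for the rescue diet alone. The parts of calcium, phosphorus and lactose therefore cannot be told apart. The design described for the series names 12 mice per diet and 8 injected mice, and how these map to 6 libraries per group is not stated. The labels do not tie libraries to animals or to separate cages, so the p-values speak of the spread among libraries, which may be technical.

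1,25D is the hormonal form of vitamin D. It binds the vitamin D receptor (VDR), which pairs with a retinoid X receptor on DNA, and in the duodenum it raises the genes that carry calcium across the enterocyte: an entry channel at the brush border (Trpv6), a calcium-binding protein in the cytosol (S100g, calbindin-D9k) and a pump at the basolateral side (Atp2b1). It also raises Cyp24a1, the enzyme that breaks the hormone down. Enterocytes arise by division in the crypts, stop dividing, and gain their digestive and absorptive genes as they move up the villus. A diet with much calcium, phosphorus and lactose lets mineral enter by routes that do not need the hormone, and is given to mice without it for that reason.

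The tables give RPKM, reads scaled to gene length and to library size, and hold no read totals, so depth is known only in relation to other libraries. Read from the steps between low values, it was 0.605 to 1.676 times the geometric mean of the 24. It did not separate the diets after 1,25D (exact permutation test of the 12 libraries, two-sided p = 0.641). Cyp27b1 was near 0 throughout and was not tested: it lay between 0.031 and 0.32 RPKM in rescue libraries and between 0 and 0.163 RPKM in normal libraries after 1,25D. After 1,25D, pancreas genes took up to 5.98% of the summed RPKM in rescue libraries and up to 3.55% in normal libraries. Intestinal epithelial markers averaged 7.68 ± 0.24 in rescue and 7.88 ± 0.10 in normal libraries, as mean log2(RPKM + 0.5) (SD, n = 6 each). Within the rescue group 3 libraries stood apart. Replicate 4 was the shallowest of the 24 and correlated least with the others, at a mean of 0.934. Replicate 5 correlated at a mean of 0.936 and had the lowest mean of known 1,25D targets among the 12 libraries given 1,25D. It also had the lowest mean of epithelial markers among these 12, at 7.30, and the highest of smooth muscle markers, at 4.88. The part of the tissue mix in its low target levels was not tested. Replicate 6, with replicate 4, was nearer to the normal libraries in many absorptive genes. The weights limma estimates for each library were 0.686, 0.491 and 0.448 for these 3, against 1.70 to 2.12 for rescue replicates 1 to 3 and 1.21 to 1.97 for the normal libraries. Named genes whose call changed when replicate 4, 5 or 6 alone was left out are given with the value that resulted.

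Of 20006 genes tested, 2 fell on the rescue diet after 1,25D and none rose, at a Benjamini-Hochberg adjusted p under 0.05 (limma on log2(RPKM + 0.5), all 24 libraries in 1 fit). These 2 are 0.0100% of the genes tested, and the share called higher was 0%. At an unadjusted p under 0.05 there were 1676 genes: 641 with lower means, which is 3.20% of all genes, and 1035 with higher means, which is 5.17%. The 6 rescue libraries all lay below the 6 normal ones for 55 genes (0.275%) and all above for 108 genes (0.540%). With libraries weighted by how well each fitted, 1287 genes were called, 472 lower (2.36%) and 815 higher (4.07%). Both genes of the unweighted test were among them. The count was 14 without rescue replicate 4, 7 without rescue replicate 6 and 1 without rescue replicate 5. It was 0 without rescue replicate 1 or 3, or without normal replicate 4, 5 or 6. It was 1 without rescue replicate 2, normal replicate 2 or normal replicate 3. The median log2 fold change over all genes was 0.12 with the values as deposited, 0.01 after quantile normalization and 0.04 after median-of-ratios scaling, so list medians below are to be read against that shift.

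Upb1 encodes beta-ureidopropionase, the last enzyme in the breakdown of uracil and thymine. In the rescue libraries it measured 2.67, 3.57, 3.15, 5.44, 1.47 and 5.36 RPKM, against 8.86, 8.31, 7.11, 10.04, 9.68 and 13.0 RPKM in the normal libraries. All 6 rescue libraries lay below all 6 normal libraries, although rescue replicates 4 and 6 came closest to them. The group means were 3.61 ± 1.55 and 9.50 ± 2.01 RPKM on the rescue and normal diets (SD, n = 6 each). Upb1 fell by 1.36 on the log2 scale (SE 0.21, limma adjusted p = 0.0152). Under vehicle the diets stood the other way round for this gene, at 5.73 ± 0.85 RPKM on the rescue diet and 3.90 ± 0.79 RPKM on the normal diet, a log2 difference of 0.51 that was not called (adjusted p = 0.651). The diet effect after 1,25D minus that under vehicle was -1.86 (SE 0.29, adjusted p = 0.0240), and Upb1 was the 1 gene of 20006 (0.00500%) called in that test, where 1371 genes had an unadjusted p under 0.05. That call was kept in 11 of the 24 fits that each left out 1 library. The vehicle groups also differed in pancreas genes, lower on the rescue diet at a median log2 difference of -2.985. Of the 25 tested, 18 had an unadjusted p under 0.05 under vehicle (limma), against 1437 of all 20006 genes. With the mean of the pancreas genes in each library as a covariate, 0 genes were called in the difference between the diet effects. The call after 1,25D was lost without rescue replicate 1 (adjusted p = 0.0785) or 3 (0.0609) and without normal replicate 4 (0.0668), 5 (0.0612) or 6 (0.0840). The log2 difference stayed between -1.48 and -1.16 over the 24 fits that each left out 1 library.

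Sepp1, now named Selenop, encodes selenoprotein P, a secreted protein that carries selenium. It measured 85.9, 116, 96.7, 315, 112 and 147 RPKM in the rescue libraries, against 244, 523, 568, 539, 518 and 588 RPKM in the normal libraries. The groups met at 1 point: rescue replicate 4 was above normal replicate 1. Sepp1 fell by 1.87 on the log2 scale (SE 0.32, limma adjusted p = 0.0417). Without rescue replicate 4 the difference was -2.12 (adjusted p = 0.00182), and without rescue replicate 1 it was -1.75 (0.210). Without rescue replicate 5 it was -1.82 (0.143). Leaving out 1 of the 12 libraries given 1,25D kept the call in 3 of 12 fits: those without rescue replicate 4, rescue replicate 6 (adjusted p = 0.0473) or normal replicate 1 (0.0187). The tables hold 3 entries for Sepp1, summed here. In rescue replicates 2 and 4 and normal replicate 2 the first entry carried the whole value and the others were listed at 0, while in the other 9 libraries the 3 entries shared it about evenly. Taking the highest entry alone in place of the sum therefore mixed level with that division, and gave -1.59 (adjusted p = 0.461). Under vehicle Sepp1 averaged 232 ± 83 RPKM on the rescue diet and 261 ± 102 RPKM on the normal diet, a log2 difference of -0.14, and the difference between the diet effects was -1.73 (adjusted p = 0.256).

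**Figure D1:**
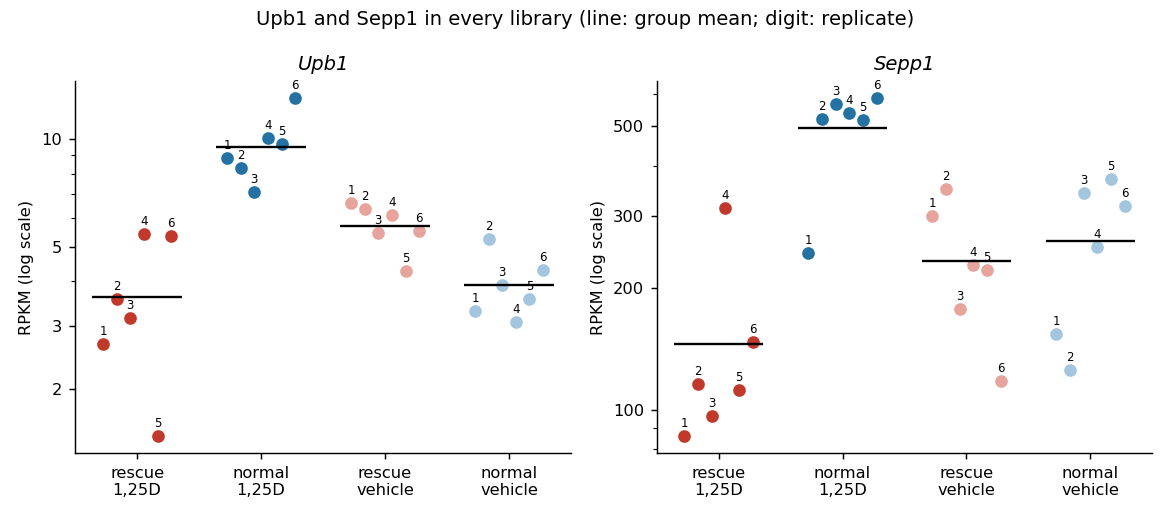
RPKM of Upb1 (left) and Sepp1 (right) on a log axis in all 24 libraries, by diet and injection; each point is a library with its replicate number, and lines are group means. After 1,25D the rescue libraries of Upb1 sit between 1.47 and 5.44 RPKM, below the normal libraries at 7.11 to 13.0 RPKM, while under vehicle the rescue mean (5.73) is above the normal mean (3.90).

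The promoter windows of these genes are shown because these were the only genes called in the unweighted test. They run from 250 bases before to 50 bases after the annotated start and come from RefSeq on GRCm38.p6, a later build than the mm9 of the submitters' processing notes. Of 3 windows for Selenop, the most downstream is given; the other 2 hold no match to the motifs searched. Capitals mark matches, on either strand, to 4 motifs: AGGTCA and GGTTCA, forms of the repeat bound by VDR and related receptors; TATAAA, the TATA box; and TGTTTAC, a forkhead factor motif. The Upb1 window lies at chr10:75406661-75406960 on the plus strand, and its capitals (TGAACC) are GGTTCA read on the other strand, 13 bases after the start. The Selenop window lies at chr15:3270727-3271026 on the plus strand, and holds TGTTTAC on the other strand from position -24 and TATAAA from -10.
Upb1: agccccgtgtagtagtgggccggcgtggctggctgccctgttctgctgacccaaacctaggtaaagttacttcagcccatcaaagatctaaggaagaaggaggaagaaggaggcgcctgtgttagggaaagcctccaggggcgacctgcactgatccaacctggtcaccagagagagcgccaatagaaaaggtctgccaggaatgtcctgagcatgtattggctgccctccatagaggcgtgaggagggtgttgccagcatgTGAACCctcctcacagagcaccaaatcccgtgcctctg
Selenop: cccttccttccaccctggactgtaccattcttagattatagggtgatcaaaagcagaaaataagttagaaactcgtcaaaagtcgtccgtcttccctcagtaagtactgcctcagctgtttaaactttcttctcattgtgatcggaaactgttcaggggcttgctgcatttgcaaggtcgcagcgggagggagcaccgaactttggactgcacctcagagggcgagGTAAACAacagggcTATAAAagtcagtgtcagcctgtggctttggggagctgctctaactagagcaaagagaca
Among all 32851 windows of this length, 16.3% hold AGGTCA, 10.4% GGTTCA, 13.6% TATAAA and 3.6% TGTTTAC. The matches describe these letters only.

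The other enzymes of pyrimidine and purine breakdown had lower means on the rescue diet in part. In that list of 9 tested genes, Upb1 was called and 4 genes, Upb1 included, were lower at an unadjusted p under 0.05, with a list median of -0.63 (-0.38 without rescue replicate 5). Dpyd, the first enzyme of the pathway that ends with Upb1, measured 32.2, 41.3, 42.0, 58.8, 35.8 and 60.9 RPKM in rescue libraries, against 50.5, 73.2, 84.6, 72.6, 63.5 and 70.2 RPKM in normal libraries. The ranges overlapped, and the log2 difference of -0.63 was not called (adjusted p = 0.481). Xdh, xanthine dehydrogenase, and Tymp, thymidine phosphorylase, differed by -0.83 and -1.16 without being called. Of 13 selenoprotein genes tested, 4 were lower and 1 higher at that unadjusted p, with a median of -0.07 that lay between -0.11 and 0.02 when 1 of the 12 libraries was left out. Dio1, the deiodinase that activates thyroid hormone, differed by -1.02 (adjusted p = 0.445). Gpx3, a secreted glutathione peroxidase, lay between 7.61 and 9.52 RPKM in 5 rescue libraries and at 18.3 RPKM in replicate 5, against 12.6 to 14.8 RPKM in normal libraries (log2 difference -0.45, adjusted p = 0.519). Gpx2, the glutathione peroxidase typical of gut epithelium and richest in crypts, went the other way: 24.6 to 56.1 RPKM in rescue libraries, against 10.01 to 29.5 RPKM in normal libraries (1.03, adjusted p = 0.480).

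Known targets of 1,25D showed no called difference between the diets. Of 17 known targets tested, 0 were called, 3 were lower at an unadjusted p under 0.05, and the median was -0.41. That median was -0.21 without rescue replicate 5 and -0.54 without rescue replicate 4. Cyp24a1 measured 430, 452, 627, 962, 92.1 and 278 RPKM in rescue libraries, against 585, 948, 1036, 701, 509 and 563 RPKM in normal libraries. Every library given 1,25D was far above the vehicle means of 0.284 RPKM on the rescue diet and 1.08 RPKM on the normal diet, and the groups overlapped, with rescue replicate 5 lowest. The log2 difference was -0.88 (SE 0.44, adjusted p = 0.609), and the 24 fits that left out 1 library gave -1.14 to -0.47.

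In the calcium absorption genes too, rescue replicate 5 was the lowest library. Trpv6 measured 2.28, 2.66, 3.59, 14.6, 0.417 and 1.17 RPKM in rescue libraries, against 3.40, 2.42, 13.4, 5.87, 7.04 and 10.9 RPKM in normal libraries. Rescue replicate 4 was the highest of the 12 and replicate 5 the lowest, and the log2 difference of -1.12 was not called (SE 0.45, adjusted p = 0.520). S100g measured 1750, 2123, 1872, 3084, 522 and 1086 RPKM in rescue libraries, against 1932, 1858, 2919, 2450, 1733 and 1950 RPKM in normal libraries (-0.47, SE 0.60, adjusted p = 0.826). Atp2b1 spanned 127 to 289 RPKM in rescue libraries, against 248 to 363 RPKM in normal libraries (-0.40, adjusted p = 0.668). Over the 15 calcium absorption genes tested the median was -0.08 (-0.14 to -0.05 when 1 of the 12 libraries was left out), with 0 called and 2 lower at an unadjusted p under 0.05. The 95% intervals of the log2 difference ran from -1.78 to 0.02 for Cyp24a1, from -2.04 to -0.19 for Trpv6, from -1.71 to 0.76 for S100g and from -0.86 to 0.06 for Atp2b1, before any adjustment. Those of Cyp24a1, S100g and Atp2b1 leave room for a lower level on the rescue diet as well as for none. That of Trpv6 lay below 0, though Trpv6 was not called once p-values were adjusted over all genes.

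Other genes that 1,25D is known to raise had overlapping ranges too. Slc30a10, a manganese exporter, spanned 27.9 to 145 RPKM in rescue libraries, against 88.5 to 135 RPKM in normal libraries (-0.54, adjusted p = 0.721). Slc37a2, a sugar phosphate exchanger, spanned 36.9 to 109 RPKM in rescue libraries, against 88.1 to 135 RPKM in normal libraries (-0.44, adjusted p = 0.722). Cyp3a11, a drug-metabolizing enzyme with a near-identical neighbour that can share its reads, measured 70.5, 130, 113, 670, 20.5 and 362 RPKM in rescue libraries, against 203, 789, 864, 782, 555 and 686 RPKM in normal libraries. Rescue replicates 4 and 6 stood with the normal libraries and the other 4 rescue libraries below them all, and the difference of -2.15 was not called (SE 0.70, adjusted p = 0.445). Vdr itself measured 42.1 to 90.3 RPKM in rescue libraries, against 43.9 to 96.4 RPKM in normal libraries (-0.14, adjusted p = 0.869).

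**Figure D2:**
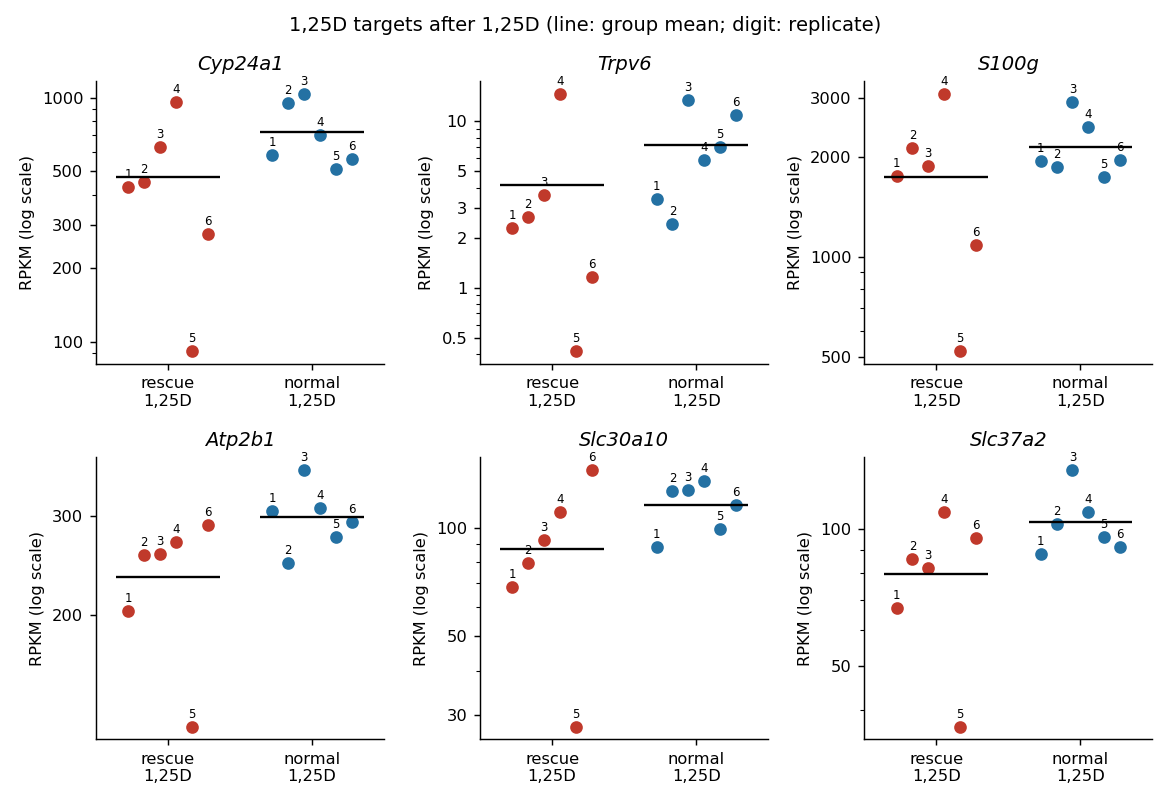
RPKM of 6 genes raised by 1,25D, on log axes, in the 6 rescue and 6 normal libraries after the injection; points are libraries with their replicate numbers and lines are group means. Rescue replicate 5 is the lowest of the 12 in each panel, for example 92.1 RPKM for Cyp24a1, and rescue replicate 4 lies within the normal range or, for Trpv6 and S100g, above it.

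Genes of the mature, absorptive enterocyte had lower values on the rescue diet after 1,25D than on the normal diet, list after list, yet none of their members was called in the unweighted test. Lower medians were not confined to them: 32 of the 37 pathway lists had a median below that of all genes. Glucocorticoid and fasting response genes, for example, had a median of -0.48, with 11 of 13 below 0. The disaccharidases and hexose transporters had the lowest median of the 40 pathway and family lists, -0.93: 10 of 11 genes were below 0, and 8 were lower at an unadjusted p under 0.05 (3.20% of all genes were). The median was -0.71 without rescue replicate 5 and -1.10 without rescue replicate 6. Lct, the lactase that splits the sugar added to the rescue diet, measured 28.8, 40.7, 28.2, 122, 7.40 and 40.6 RPKM in rescue libraries, against 69.4, 238, 188, 68.9, 168 and 163 RPKM in normal libraries. Only rescue replicate 4 reached the normal range, and the log2 difference was -2.02 (SE 0.70, adjusted p = 0.480). Under vehicle Lct stood higher on the rescue diet, at a mean of 66.0 RPKM against 24.4 RPKM on the normal diet (1.74, not called).

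Further members of the list also varied widely among the rescue libraries. Sis, sucrase-isomaltase, measured 327, 557, 239, 554, 338 and 702 RPKM in rescue libraries, against 623, 657, 991, 995, 957 and 984 RPKM in normal libraries (-1.01, adjusted p = 0.349). Slc5a1, the sodium-glucose cotransporter, measured 456, 726, 536, 1372, 284 and 1843 RPKM in rescue libraries, against 1037, 1455, 1717, 1847, 1482 and 2368 RPKM in normal libraries (-1.17, adjusted p = 0.456). For Slc5a1, rescue replicates 4 and 6 fell inside the normal range and the other 4 below it. Slc2a5, the fructose transporter, spanned 5.44 to 39.1 RPKM in rescue libraries, against 24.7 to 35.2 RPKM in normal libraries (-0.98, adjusted p = 0.481). Slc5a4a, a member of the same family as Slc5a1, was the 1 gene of the list without overlap, at 0.856 to 4.97 RPKM in rescue libraries against 5.14 to 14.3 RPKM in normal libraries (-1.71, adjusted p = 0.267). Enzymes that handle the absorbed sugars were lower to a lesser degree, with a median of -0.21 and 5 of 16 genes lower and 2 higher at an unadjusted p under 0.05. Fbp1, of gluconeogenesis, differed by -1.05 and Khk, ketohexokinase, by -0.53, both not called.

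Lipid absorption genes had a median of -0.49, with 24 of 25 below 0 and 15 lower at an unadjusted p under 0.05. Apoa1, the main protein of high-density lipoprotein, measured 139, 217, 235, 548, 66.3 and 627 RPKM in rescue libraries, against 557, 1114, 731, 758, 594 and 1099 RPKM in normal libraries (-1.74, SE 0.44, adjusted p = 0.267). Only rescue replicate 6 reached the normal range. Apob, the structural protein of chylomicrons, differed by -1.05 and Dgat1, which makes triglyceride, by -0.51, neither called. Fatty acid oxidation and ketogenesis genes had a median of -0.56, with 23 of 24 below 0 and 14 lower at that unadjusted p. Acaa2, the mitochondrial thiolase, spanned 78.3 to 199 RPKM in rescue libraries, against 181 to 318 RPKM in normal libraries (-0.98, adjusted p = 0.209). Crat, carnitine acetyltransferase, did not overlap, at 5.14 to 9.12 RPKM in rescue libraries and 9.23 to 12.2 RPKM in normal libraries (-0.58, adjusted p = 0.316). Without rescue replicate 4 the thiolases Acaa1a (adjusted p = 0.0304) and Acaa2 (0.0445) were called, with log2 differences of -0.90 and -1.13.

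All 16 peptidase genes tested were below 0, with a median of -0.74 (-0.46 without rescue replicate 5) and 8 lower at an unadjusted p under 0.05. Enpep, glutamyl aminopeptidase of the brush border, measured 17.8, 24.6, 17.6, 32.4, 18.4 and 29.5 RPKM in rescue libraries, against 58.1, 87.5, 46.4, 61.4, 42.3 and 49.8 RPKM in normal libraries. Its groups did not overlap (log2 difference -1.28, SE 0.27, adjusted p = 0.142). Mme, neprilysin, differed by -1.22 and overlapped, and Ace, angiotensin-converting enzyme, by -0.77 without overlap. Transporters of peptides and amino acids had a median of -0.38 (-0.25 without rescue replicate 5), with 6 of 16 lower at that unadjusted p. Slc15a1, the peptide transporter, spanned 3.69 to 41.6 RPKM in rescue libraries, against 31.1 to 41.9 RPKM in normal libraries (-1.16, adjusted p = 0.482). Slc6a20a, a proline transporter, was at 2.58 to 9.06 RPKM in 5 rescue libraries and 18.7 RPKM in replicate 4, against 12.8 to 22.4 RPKM in normal libraries. Its difference was -1.43 (adjusted p = 0.159) with all libraries and -1.74 (adjusted p = 0.00277) without rescue replicate 4.

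Detoxifying enzymes followed. Phase I enzymes, which oxidize or reduce foreign compounds, had a median of -0.74 with 11 of 19 lower at an unadjusted p under 0.05. Phase II enzymes, which conjugate them, had a median of -0.42 with 10 of 28 lower. Cyp4v3, a fatty acid hydroxylase, was in neither list and was named for its small unadjusted p in this comparison. It measured 30.1, 35.9, 31.6, 99.0, 23.6 and 65.4 RPKM in rescue libraries, against 64.2, 131, 138, 120, 124 and 153 RPKM in normal libraries (-1.48, SE 0.34, adjusted p = 0.200). Without rescue replicate 4 it was called (-1.73, adjusted p = 0.0304). Ugt2b5, a glucuronosyltransferase, differed by -1.44 (adjusted p = 0.348). Abcb1a, the efflux pump P-glycoprotein, was at 21.9 to 29.2 RPKM in 5 rescue libraries and 58.4 RPKM in replicate 6, against 41.2 to 53.8 RPKM in normal libraries (-0.69, adjusted p = 0.447). Microvillus genes had a median of -0.41 (-0.27 without rescue replicate 5) with 5 of 12 lower, and retinoid genes -0.33 with 4 of 14 lower. Retsat, retinol saturase, was outside the retinoid list and was named for its small unadjusted p (-0.95, limma adjusted p = 0.191). Genes that move ions and water had a list median of -0.25 (-0.40 without rescue replicate 6), with 9 of 27 lower and 1 higher. Guca2b, uroguanylin, a peptide that governs salt and water secretion, differed by -1.93 (adjusted p = 0.267). Aqp3, a water and glycerol channel, was at 0.163 to 0.839 RPKM in rescue libraries, against 0.882 to 2.41 RPKM in normal libraries (-1.39, adjusted p = 0.297). In the other direction Aqp4, a water channel, was at 8.53 to 17.3 RPKM in rescue libraries, against 4.28 to 7.28 RPKM in normal libraries (0.89, adjusted p = 0.297).

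**Figure D3:**
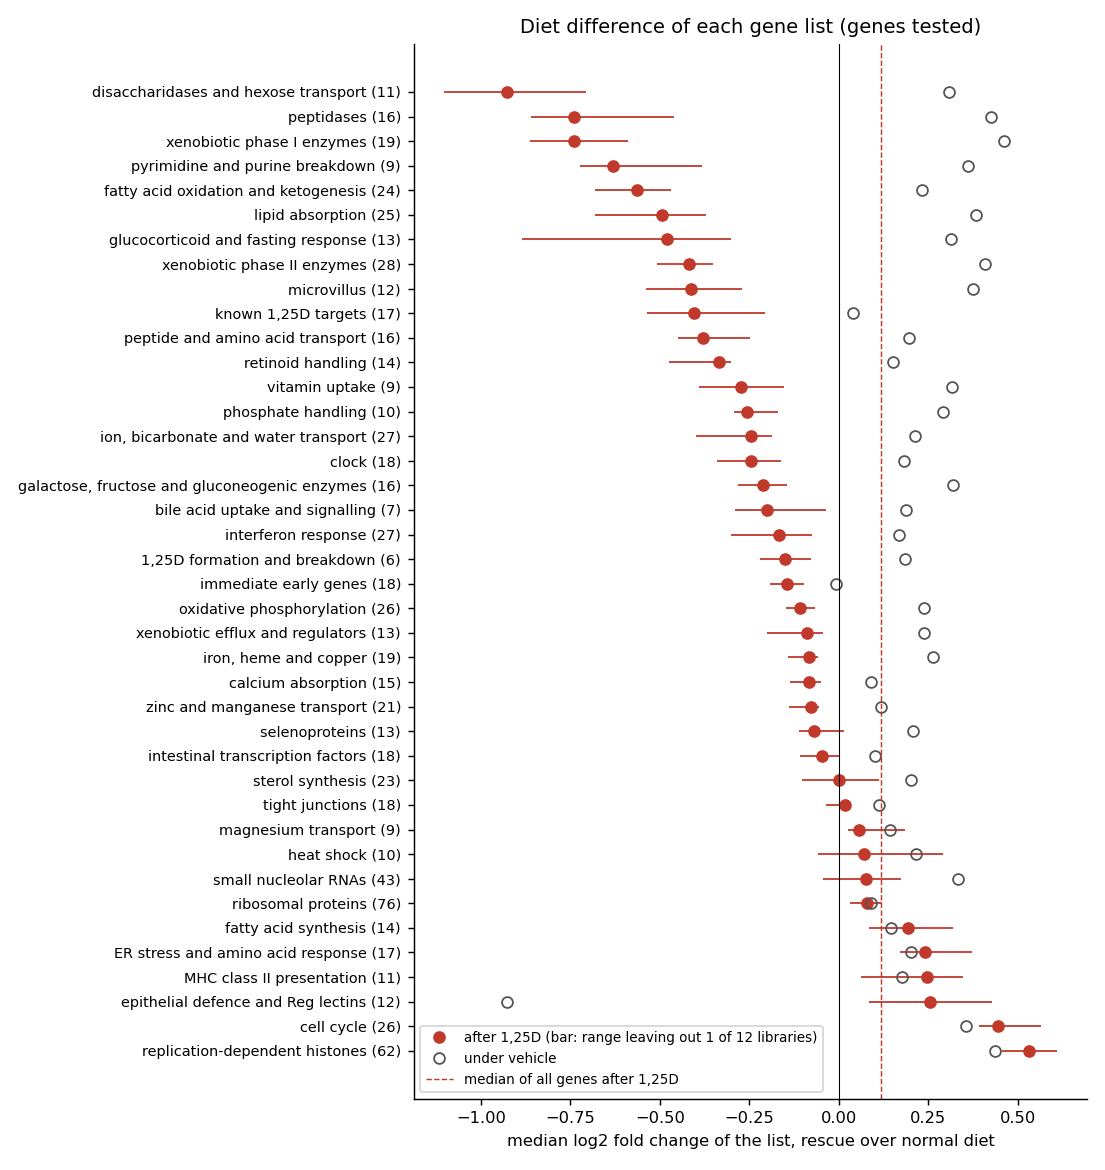
Median log2 fold change, rescue over normal diet, of each of 40 gene lists (genes tested in brackets) after 1,25D (filled, with the range over fits that leave out 1 of the 12 libraries) and under vehicle (open); the dashed line is the median of all genes after 1,25D, 0.12. Disaccharidases and hexose transport stand lowest after 1,25D at -0.93 and replication-dependent histones highest at 0.53, while under vehicle most absorptive lists stand to the right of 0.

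Under vehicle the medians of these lists stood on the other side of 0. The median diet difference under vehicle was 0.31 for disaccharidases and hexose transport, 0.38 for lipid absorption, 0.43 for peptidases, 0.23 for fatty acid oxidation and 0.46 for phase I enzymes, against a median of 0.10 for all genes. It was 0.32 for enzymes that handle absorbed sugars, 0.20 for peptide and amino acid transport and 0.41 for phase II enzymes. Microvillus genes were at 0.38, retinoid genes at 0.15 and genes that move ions and water at 0.21. These medians stayed above 0 after quantile normalization and after median-of-ratios scaling, while those after 1,25D stayed below 0. No gene was called between the diets under vehicle (0 of 20006, 0%, limma; 1437 genes at an unadjusted p under 0.05). In the difference between the diet effects 6.85% of all genes had an unadjusted p under 0.05, in either direction. Of the 25 lipid absorption genes, 19 had an unadjusted p under 0.05 in the difference between the diet effects, as had 12 of 16 peptidases and 8 of 11 disaccharidases and hexose transporters. None of these passed the adjusted test. Of the genes named here, Akr1c19, an aldo-keto reductase, had the smallest p after Upb1, with a difference of -1.77 (adjusted p = 0.0937). The difference between the diet effects uses the vehicle libraries and the 1,25D libraries together and is not a separate set of samples. The vehicle groups in it also differed in pancreas genes, as given above with Upb1.

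Genes of dividing cells had higher values on the rescue diet after 1,25D. All 26 cell cycle genes tested were above 0, with a median of 0.45 (0.41 and 0.36 under quantile and median-of-ratios scaling), and 14 were higher at an unadjusted p under 0.05, against 5.17% of all genes. Foxm1, a transcription factor of mitotic genes, measured 3.41, 3.44, 3.85, 3.11, 3.88 and 2.09 RPKM in rescue libraries, against 2.12, 1.46, 1.65, 2.05, 1.94 and 1.56 RPKM in normal libraries. Only rescue replicate 6 fell inside the normal range (log2 difference 0.71, SE 0.18, adjusted p = 0.267). Bub1, of the spindle checkpoint, differed by 0.79 and Tyms, thymidylate synthase, by 0.62. Of 62 replication-dependent histone genes tested, 61 were above 0 and 39 were higher at that unadjusted p, with a median of 0.53; these near-identical genes can share reads. Fbxo5, an inhibitor of the anaphase-promoting complex, Esco2, which acetylates cohesin, and Stil, needed to form centrioles, were outside both lists. They were named for their small unadjusted p in this comparison, so their lack of overlap was partly set by that choice. Each lay higher in all 6 rescue than in all 6 normal libraries, as did 0.540% of all genes. Their differences were 0.78, 0.74 and 0.72. The cell cycle median was 0.35 and the histone median 0.44 under vehicle as well, and 0 and 1 of their genes had an unadjusted p under 0.05 in the difference between the diet effects, where 6.85% of all genes had.

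Rescue replicates 4 and 6 stood nearest to the normal libraries in the cell cycle list and in the list of disaccharidases and hexose transport. The mean log2(RPKM + 0.5) of the cell cycle list was 4.40, 4.37, 4.34, 3.83, 4.43 and 3.77 in rescue libraries, against 3.93, 3.67, 3.74, 3.42, 3.97 and 3.60 in normal libraries. Rescue replicates 4 and 6 were inside the normal range. For disaccharidases and hexose transport it was 4.81, 5.21, 4.74, 5.70, 3.89 and 5.63 in rescue libraries, against 5.52, 6.07, 6.14, 5.91, 5.91 and 6.17 in normal libraries. Here too rescue replicates 4 and 6 were the 2 inside the normal range. Other absorptive lists divided the libraries differently: for peptidases rescue replicate 4, at 4.47, was below the lowest normal library at 4.59, and for microvillus genes replicate 6, at 6.21, was above the highest at 5.91. In whole duodenum, fewer cells of a type and less RNA per cell cannot be told apart, so these values do not separate a smaller share of mature enterocytes from lower expression in each.

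**Figure D4:**
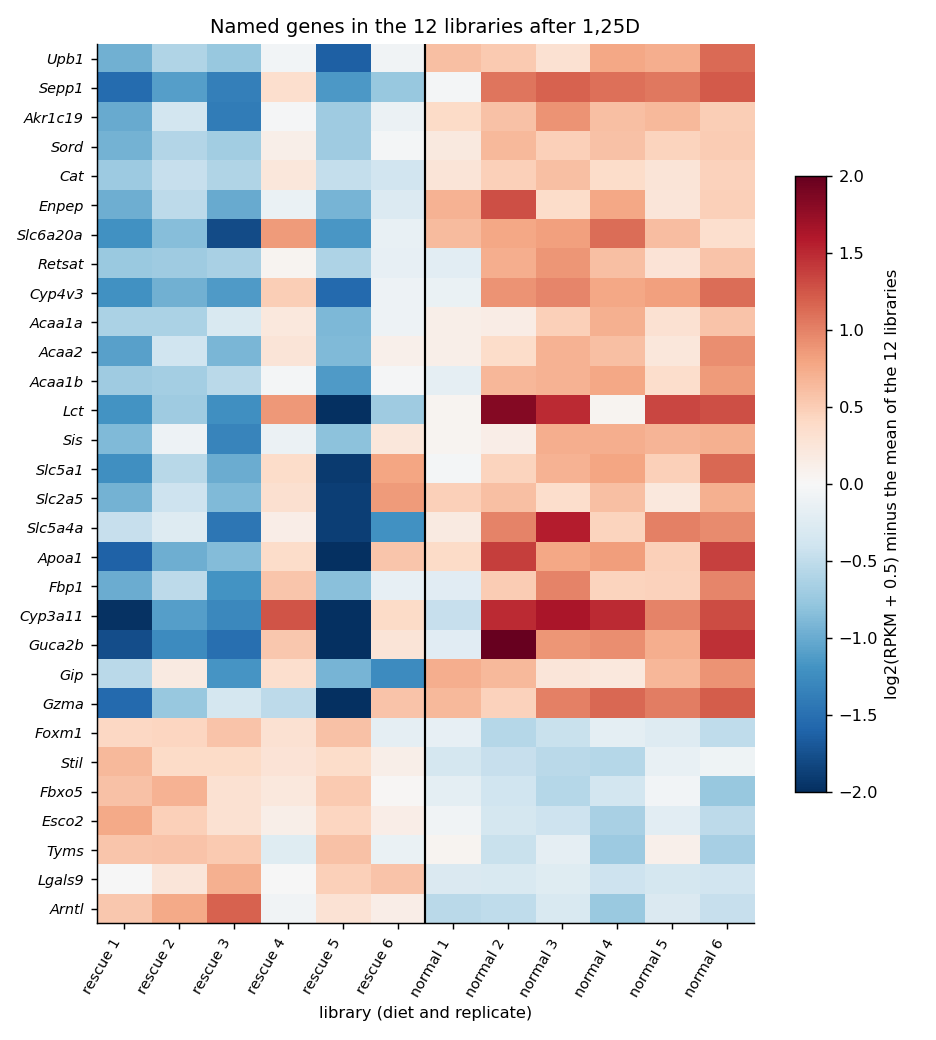
Log2(RPKM + 0.5) of 30 named genes in the 12 libraries after 1,25D, each minus the gene's mean over the 12; red is above and blue below that mean, and colours end at 2 either way. Rescue replicates 1, 2, 3 and 5 are mostly blue in the absorptive genes and red in the division genes, while replicates 4 and 6 are paler and in places match the normal libraries.

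The genes with the smallest unadjusted p after the 2 called ones were of several kinds. On the lower side they were Akr1c19 (-1.20, adjusted p = 0.111), Sord, sorbitol dehydrogenase (-0.95, 0.111), Cat, catalase (-0.81, 0.142), Gip, the incretin hormone of duodenal K cells (-1.13, 0.142), and Enpep. Cat measured 21.9, 26.7, 24.1, 43.2, 26.2 and 28.1 RPKM in rescue libraries, against 44.2, 51.2, 55.9, 47.6, 44.0 and 50.8 RPKM in normal libraries. Its groups did not overlap, and rescue replicate 4 was nearest to the normal libraries. Itpr2, a calcium release channel of the endoplasmic reticulum, also did not overlap, at 7.32 to 13.7 RPKM in rescue libraries and 14.0 to 16.6 RPKM in normal libraries (-0.63, adjusted p = 0.200). Without rescue replicate 4, the shallowest library, these genes other than Enpep were called: Akr1c19 (-1.31, adjusted p = 0.0208), Sord (-1.07, 0.0118), Cat (-0.93, 0.00939), Gip (-1.31, 0.0118) and Itpr2 (-0.72, 0.0400). Without rescue replicate 6, Akr1c19 (-1.30) and Sord (-1.04) were called, both at an adjusted p of 0.0473. On the higher side were Pmf1, a kinetochore protein (0.70, adjusted p = 0.142), Stil, Srp9, of the signal recognition particle (0.43, 0.142), and Lgals9, galectin-9 (0.66, 0.159). Lgals9 measured 19.6, 23.3, 32.6, 19.6, 27.4 and 29.4 RPKM in rescue libraries, against 16.0, 15.8, 16.5, 14.7, 15.3 and 14.9 RPKM in normal libraries, with no overlap and a normal group of narrow spread. After quantile normalization Srp9 (adjusted p = 0.0280) and Lgals9 (0.0200) were called higher.

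Clock genes stood on both sides. Arntl, which encodes BMAL1, the activating arm of the clock, measured 4.17, 4.94, 6.76, 2.57, 3.42 and 3.01 RPKM in rescue libraries, against 1.71, 1.75, 2.11, 1.42, 2.14 and 1.84 RPKM in normal libraries. All rescue libraries lay above all normal ones (0.94, SE 0.24, adjusted p = 0.267). Tef and Hlf, output factors of the clock, differed by -0.60 and -0.86, and Tef was called without rescue replicates 4 and 5 together (-0.86, adjusted p = 0.0242). Of 18 clock genes tested, 7 were lower and 1 higher at an unadjusted p under 0.05, and 0 were called. The labels give no hour of collection, so time of day was not tested.

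Genes of the amino acid and endoplasmic reticulum stress response had a median of 0.24 (0.37 without rescue replicate 4), with 3 of 17 higher at an unadjusted p under 0.05. Psat1, of serine synthesis, was at 5.49 to 12.3 RPKM in rescue libraries, against 2.60 to 5.42 RPKM in normal libraries (0.97, adjusted p = 0.403), and Asns, asparagine synthetase, differed by 0.75. Fatty acid synthesis genes had a median of 0.19 (0.08 without rescue replicate 5 and 0.32 without rescue replicate 6), with 3 of 14 higher at that unadjusted p. Scd2, a fatty acid desaturase, measured 30.04, 33.3, 44.3, 8.06, 34.2 and 5.89 RPKM in rescue libraries, against 16.2, 6.79, 7.51, 6.72, 13.3 and 7.14 RPKM in normal libraries (1.15, adjusted p = 0.486). Rescue replicates 1, 2, 3 and 5 were above every normal library, and replicates 4 and 6 were not.

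Among genes of mineral handling and defence, most values overlapped. Mt2, a metallothionein that binds zinc, measured 1.98, 0.435, 0.926, 15.3, 2.33 and 19.1 RPKM in rescue libraries, against 7.76, 17.3, 10.3, 24.8, 8.52 and 17.1 RPKM in normal libraries (-1.85, SE 0.64, adjusted p = 0.480). Rescue replicates 4 and 6 were again inside the normal range and the other 4 below it. Heph, hephaestin, which helps iron leave the enterocyte, differed by -0.78 (adjusted p = 0.480), and 3 of 19 genes of iron, heme and copper were lower at an unadjusted p under 0.05. Reg1, a secreted lectin that pancreas also makes, measured 1159, 1324, 1202, 1601, 559 and 1710 RPKM in rescue libraries, against 2350, 2217, 1745, 3105, 2232 and 2148 RPKM in normal libraries. Its groups did not overlap (-0.93, adjusted p = 0.423), and neither did those of Reg4, at 36.7 to 56.5 RPKM in rescue libraries and 58.9 to 77.8 RPKM in normal libraries (-0.61, adjusted p = 0.449). These were the 2 of 12 defence and Reg genes that were lower at that unadjusted p, in a list with a median of 0.26 (0.09 to 0.43 when 1 of the 12 libraries was left out).

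Markers of other cells in the duodenal wall also differed. In the T cell list, 8 of 13 genes tested were below 0 and 5 above 0, and 6 were lower at an unadjusted p under 0.05. The list averaged 0.675 ± 0.226 in rescue libraries and 1.16 ± 0.149 in normal libraries, as mean log2(RPKM + 0.5) (SD, n = 6 each). All 6 rescue libraries lay below all 6 normal ones, an exact permutation p of 0.00216, two-sided, the smallest that 6 libraries against 6 allow, and 0.0476 after adjustment over 22 scores. It was the 1 score that passed, and none did after median-of-ratios scaling. Cd3g, part of the T cell receptor complex, measured 1.76, 1.52, 3.12, 1.38, 1.44 and 2.97 RPKM in rescue libraries, against 6.31, 4.33, 4.97, 3.54, 6.22 and 5.86 RPKM in normal libraries (-1.20, adjusted p = 0.326). Gzma, granzyme A of cytotoxic lymphocytes, differed by -1.84 (adjusted p = 0.244), and Gzmb, granzyme B, by -0.98 (0.456). Under vehicle the median of the T cell list was 0.05.

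The remaining cell lists did not pass. Mast cell markers averaged 1.15 ± 0.22 in rescue and 0.608 ± 0.287 in normal libraries (exact permutation p = 0.00866, adjusted 0.0952). Smooth muscle markers ranged from 3.04 to 4.88 in rescue libraries and from 3.27 to 4.29 in normal libraries (adjusted p = 0.503, exact permutation). All 16 of them had log2 differences above 0. So had all 14 Paneth cell, all 7 mast cell and all 6 B and plasma cell markers tested, and 12 of 13 fibroblast and matrix markers. The median over all genes was itself above 0, at 0.12. Markers of a list were measured in the same libraries, so these counts are not separate tests. The Paneth cell, B and plasma cell, and fibroblast and matrix scores each had an adjusted p of 0.503 (exact permutation). Enteroendocrine genes were lower at an unadjusted p under 0.05 for 6 of 16, among them Gip, at 15.3 to 47.2 RPKM in rescue libraries and 43.1 to 69.7 RPKM in normal libraries, and Cck, at 12.8 to 21.3 RPKM in rescue libraries and 21.6 to 29.8 RPKM in normal libraries. Brunner's gland and stomach markers were at 0.933 to 2.66 in rescue libraries and 1.10 to 3.20 in normal libraries. With the smooth muscle score of each library as a covariate no gene was called, and the adjusted p was 0.0720 for Upb1 and 0.213 for Sepp1; with the epithelial score it was 0.0813 and 0.166. With the pancreas score both stayed called. The log2 differences of Upb1 and Sepp1 in these 3 fits lay between -1.35 and -1.15 and between -1.86 and -1.73. The part of the cell mix in the results above was not tested beyond these fits.

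**Figure D5:**
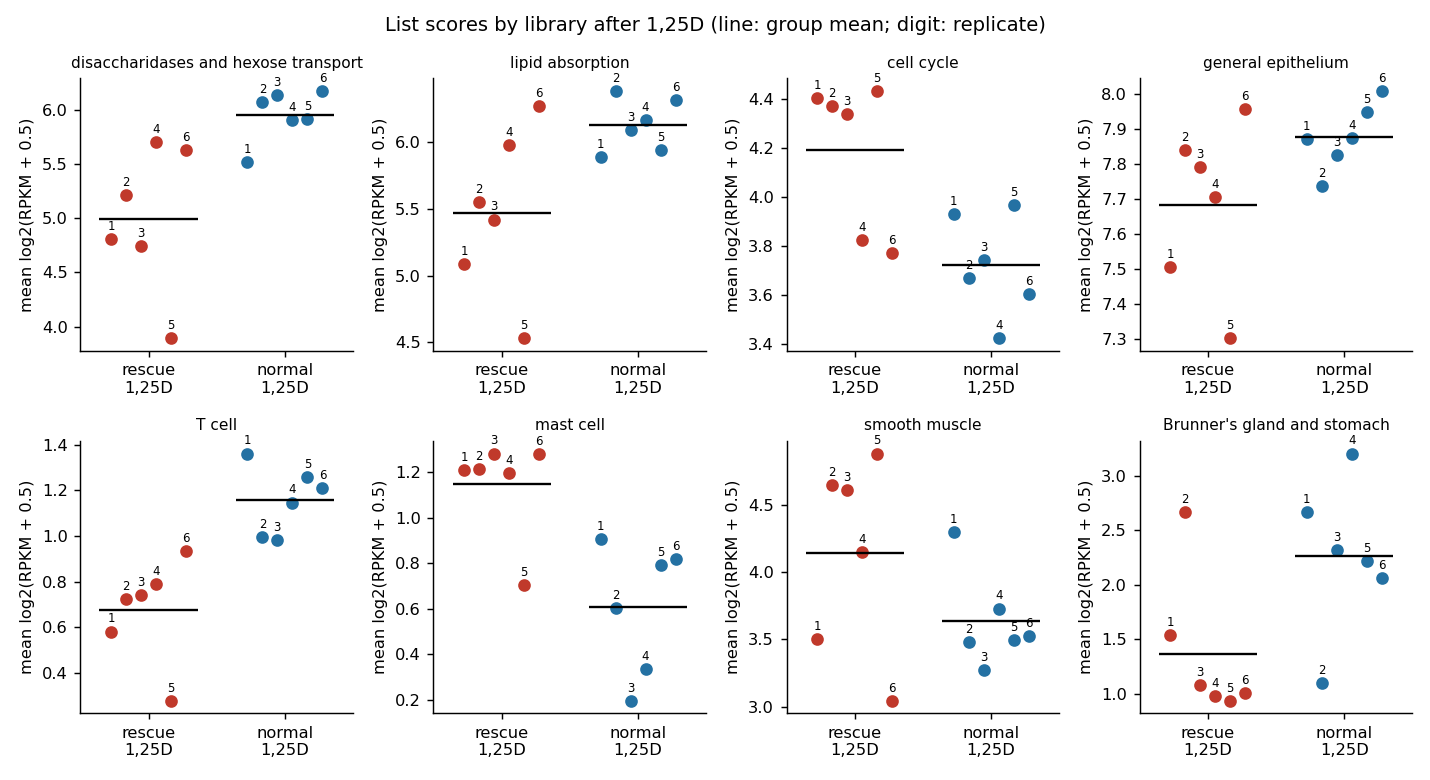
Mean log2(RPKM + 0.5) of 8 gene lists in each of the 12 libraries after 1,25D; points are libraries with their replicate numbers and lines are group means. The T cell score lies between 0.276 and 0.935 in rescue libraries and above that, between 0.984 and 1.36, in normal libraries, while the smooth muscle and epithelial scores overlap.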

How the data were processed

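RNA from duodenum was depleted of ribosomal RNA and made into directional libraries, per the labels' protocols. The authors deposited 1 table of RPKM per library, per the file headers, and no read counts; the submitters' processing notes name TopHat and the build mm9, and what computed the RPKM values, with which annotation, is not stated in the labels or headers. RPKM values of entries sharing a symbol were added, which merges isoforms; of 84 genes tabulated for the text, 11 had several entries. The 20006 genes with 0.5 RPKM or more in at least 6 of 24 libraries were fitted as log2(RPKM + 0.5) with limma 3.58.1 (R 4.3.3), with an intensity trend, all 4 groups in 1 fit (20 residual degrees of freedom). Fold changes on this scale understate the change of low genes. Tests were two-sided, and p-values were adjusted over all genes by Benjamini-Hochberg. Relative depth came from the steps between low RPKM values of 3507 entries, with 88.0% of 276 library pairs matched within 0.05 on the log2 scale. Tables and figures were made in Python 3.11.15 (pandas 2.3.3, numpy 2.4.6; figures in matplotlib 3.10.9). The fit was run on simulated data in which genes varied independently and each gene had the same spread in every library. That simulation therefore did not cover libraries of unequal weight.

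Named genes are up to 15 per direction (called genes by fold change, filled up by smallest unadjusted p, with a mean of 1 RPKM or more), up to 4 per gene list by smallest unadjusted p, 12 throughout, and those called in the difference between diet effects; the text names part of the 84 tabulated of these 252. Of 880 positions in the 58 lists, besides those set by a name pattern, 854 were found and 810 tested. The comparison, the lists and the genes were chosen with earlier results of these data known. Alternatives covered the pseudocount, the filter, scaling, library weights, a replicate block, the libraries in the fit, the entry of a symbol, the threshold, covariates and leaving out each library; leaving out rescue 1,25D replicates 4 and 5 together, or the shallowest and the deepest library together, and an epithelial covariate were added after seeing the data.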

Additional observations from a re-analysis of the deposited data

Results flagged for a closer look

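Within the groups of 6, 18 values lay farther from their neighbours than Dixon's 95% limit among 212 groups examined; chance alone flags about 1 in 20. In rescue 1,25D replicate 4, Sepp1 was at 315 RPKM (next 147), Cat at 43.2 (next 28.1), Trpv6 at 14.6 (next 3.59), Lct at 122 (next 40.7) and Ugt2b5 at 22.5 (next 9.26), each the highest of its group. In rescue replicate 5, Gpx3 was highest at 18.3 RPKM (next 9.52) and the mast cell score lowest at 0.703 (next 1.194). In rescue replicate 6, Abcb1a was highest at 58.4 RPKM (next 29.2). In rescue replicate 2, Tff2, a trefoil factor of Brunner's glands and stomach, was at 133 RPKM (next 25.8) and the Brunner's gland and stomach score at 2.663 (next 1.541). In rescue replicate 1, exocrine pancreas genes took 5.976% of the summed RPKM (next 1.379%).

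Among normal 1,25D libraries, replicate 1 had the lowest Sepp1 at 244 RPKM (next 518) and the highest Cck at 29.8 (next 23.8). Replicate 2 had Hlf at 7.77 RPKM (next 4.78) and pancreas genes at 3.546% of the summed RPKM (next 0.436%). Replicate 4 had Tff2 at 260 RPKM (next 97.1) and the adipocyte score at 2.181 (next 1.56), and replicate 6 had Khk at 138 RPKM (next 104).

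Between injections, the diet effect on Upb1 after 1,25D minus that under vehicle was -1.86 on the log2 scale, by the test of the difference itself (limma adjusted p = 0.0240).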

How the results depend on the processing

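The 2 calls after 1,25D became 1 with no filter, median-of-ratios scaling, the replicate block or the highest entry of a symbol, 4 with quantile normalization, 1287 with array weights, and 0 with the 12 libraries alone, a smooth muscle covariate or an epithelial covariate. They became 5 without rescue 1,25D replicates 4 and 5, and 57 without the shallowest and the deepest library. Members of the lists called went from 2 to 165, 4 and 13 with array weights and those 2 exclusions, and to 1 or 0 where the count above did, except that quantile normalization left 2. Leaving out 1 library gave 0 to 14 calls after 1,25D, 0 to 6 among list members, 0 to 4 under vehicle (4 without normal vehicle replicate 4) and 0 to 17 for the difference between diet effects. That difference, 1 call as reported, gave 2 with quantile normalization, 0 with median-of-ratios scaling or any of the 3 covariates, 32 with array weights, 5 at an adjusted p under 0.10, and 4 and 11 with the 2 exclusions. Under vehicle all other settings gave 0. Of 22 cell type and technical scores, 1 passed, and 0 with median-of-ratios scaling. Unless shown above, the cause was not tested.

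Same-numbered libraries of the 2 diets did not deviate together (mean correlation -0.032, against 0.007 for other pairs, and 0 of 6 was best with its own number). No pairing by number was seen in these values. Whether same-numbered libraries shared a cage, a preparation or a run was not tested. With the replicate block Sepp1 had an adjusted p of 0.0961 and Upb1 of 0.0131, 1 call in all. Of 3401 values of single genes under other settings, 3260 kept their call and direction, 28 lost a call, 112 gained one (71 with array weights), and 1 turned: Vdr, at 0.0411 with the smooth muscle covariate. Depth limits genes of low RPKM most, and no read totals were given.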
